A study of Drosophila melanogaster with 63 samples.

Results

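The genes described here are 53 CG-numbered genes whose expression ratio to young larvae was higher at every sampled age through larval life. In all adult diet groups they stayed within 2-fold of the control. A CG number is the running number that the fly genome annotation gives to a predicted gene, and many genes are still called by it for want of a usual name. They were chosen by measured values, as follows. The log2 ratio, as the median over the clones of a gene, had to be higher at each step from 52 to 64, 76, 88 and 100 h. It also had to be at least 1 at 100 h, which is 2-fold, and to lie between -1 and 1 in all 7 adult groups. The 53 genes stand against 3869 CG-numbered genes measured and 9212 genes in all. A further 5 genes were left out by name, and none of them met the rest of the rule. Because every contrast of the study entered the choice, all ratios below are a description, with no test.

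The arrays came from a study of the starvation response in Drosophila melanogaster of the wild-type strain OregonR, kept at 25 C, on spotted arrays that set a treated against a control RNA in 2 dye channels. Larvae on apple juice agar with yeast were collected at 52, 64, 76, 88 and 100 h after egg laying, each within a 2 h window (51 to 53 h for the youngest), and compared with larvae of 40 h from the same food. These ages had 6, 5, 6, 4 and 4 arrays. Adult flies were moved from standard food to filter paper soaked in buffer alone (starved) or in buffer with 20% sucrose (sugar), and each was compared with control adults on yeast paste. Females had 6 and 5 arrays after 24 and 48 h of starvation and 5 and 6 after 24 and 48 h of sugar, and males had 6 after 24 h of starvation and 6 and 4 after 24 and 48 h of sugar. Whole larvae are a mixture of tissues, and the number of animals per RNA is not given in the sources used here. All arrays of a group carried the same merged value, so each gene has 1 ratio per group, with no spread between arrays. All 5 larval ratios share the control of 40 h.

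Larval life is the feeding and growing phase of the fly. The animal moults as it grows, and most larval tissues grow by enlarging their cells. Late in this phase the fat body fills with storage proteins, the salivary glands make glue for the pupa, the gut is at its largest, and a rise of the steroid hormone ecdysone prepares the animal for pupation. RNA of a whole larva therefore follows both how active a gene is and how much of each tissue there is, and in these bulk samples fewer or more cells of a type and less or more RNA per cell cannot be told apart.

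The larval ratios are likely late over young larvae. The labels name 40 h as the control, and Lsp2, a storage protein of the late larval fat body, was at 3.28, 2.15, 6.09, 8.52 and 8.26 on the log2 scale from 52 to 100 h. All values from here on are on that scale unless a fold is named. Fbp2, another fat body gene of late larvae, stood at 7.51 at 100 h. For adults the direction is taken to be the same, diet over control, and no value here settles it, since each group holds arrays of both dye orientations under 1 merged value. Lsp2 lay between -7.25 and -4.59 in the 7 adult groups. With the sign turned, all adult values below would turn too, while the 53 genes would stay, because the adult limits are the same on both sides. These were the 2 measured genes of 6 on the fat body list, and both were higher at all ages. All 5 measured salivary gland genes lay above the 2-fold line at 100 h, among them the glue gene Sgs1 at 4.18. Of 27 measured midgut genes, 14 were at least 2-fold higher and none lower at that age, with a median of 1.09. Among them Amy-p, an amylase, was at 3.71. The gut lipase mag, at 5.57, is not among the 27, because the list spelled its symbol Mag. Of 6 blood cell genes, the prophenoloxidases PPO1 (2.90) and PPO2 (3.55) were at least 2-fold higher, while NimC1, a receptor of phagocytic blood cells, was at 0.21. None of 6 muscle genes and none of 4 Malpighian tubule genes was 2-fold from the control at 100 h. The 1 measured cuticle gene, Ccp84Ad, was at -3.76, and 2 of 3 tracheal genes were at least 2-fold lower. Higher at each of the 4 larval steps were 0 of 2 fat body, 1 of 5 salivary gland and 3 of 27 midgut genes. Of the 6 blood cell genes 2 were, and of all genes 3.85%. None of the other listed genes was. The midgut median was 1.38 at 88 h, higher than at 100 h. What these tissue changes contribute to the ratios of the 53 genes was not tested.

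The genes divided into a few with very large ratios and many near the threshold. At 100 h the 53 genes lay between 1.00 and 7.16, with a median of 1.44 (2.71-fold). Only 6 of them were at 4 or above, 20 were at 2 or above, and 28 were below 1.5. At 88 h their median was 0.96, and 24 of the 53 reached 2-fold, as did 3.22% of all genes. At 76 h the median was 0.54 with 12 at least 2-fold higher (2.07% of all genes), and at 64 h it was 0.24 with 7 (0.999%). At 52 h the median was 0.05, against -0.02 for all genes, and only CG6527 was at least 2-fold higher (0.478%). At that age 19 of the 53 were below 0, and the share of all genes below 0 was not computed. At 100 h the choice fixed the count, and 4.97% of all genes reached 2-fold at that age. Over all genes, 3.85% were higher at each of the 4 steps, 1.45% were so and reached 2-fold, and 1.2% met the whole rule. The median over all genes stayed between -0.03 and 0.02 at the 5 ages.

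**Figure D1:**
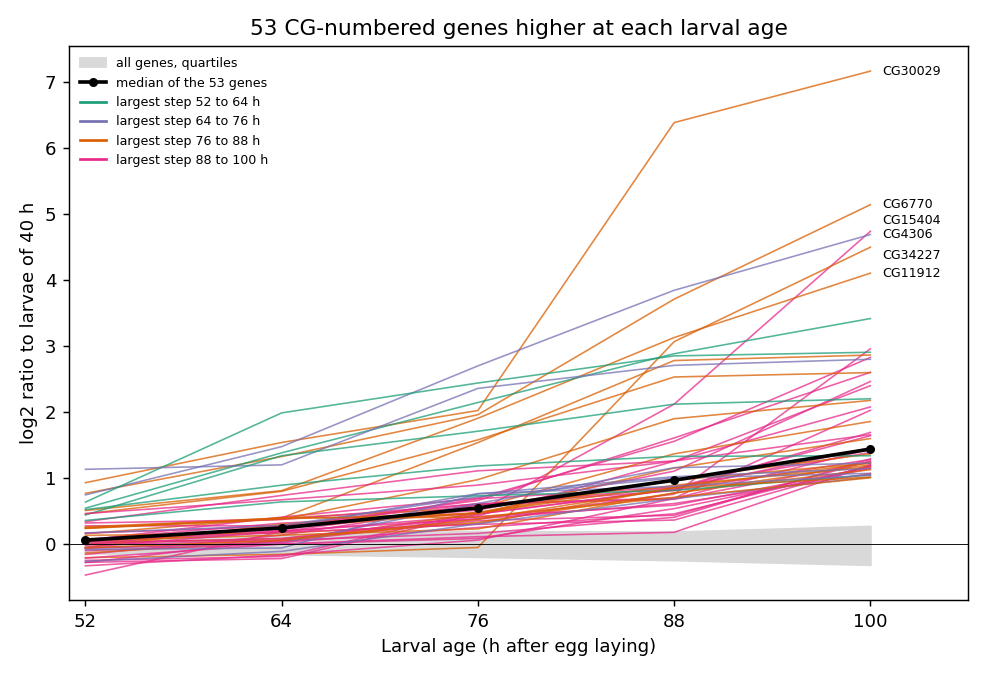
Log2 ratio to larvae of 40 h (vertical axis) against larval age in hours (horizontal axis) for each of the 53 genes, 1 line a gene, coloured by the step with the largest difference. The black line is their median, from 0.05 at 52 h to 1.44 at 100 h, the grey band spans the quartiles of all genes, and 6 genes end at 4 or above.

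CG30029 had the highest ratio of the set. It stood at 0.93, 1.54, 2.02, 6.38 and 7.16 from 52 to 100 h, and in the 7 adult groups it lay between -0.16 and 0.25. Most of its difference came in 1 step, since the ratio was 4.36 higher at 88 h than at 76 h, which is 70.0% of the difference between 52 and 100 h. The RefSeq annotation no longer carries this symbol and lists it as an older name of CR30029, a pseudogene. Its clone may thus also report a related gene, which was not tested. CG9284 (1.69 at 100 h) and CG6900 (1.65) are likewise older names, of a long noncoding RNA and of a pseudogene. Only the other 50 symbols are current ones.

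CG6770 came next at 0.77, 1.32, 1.96, 3.71 and 5.14. It carries the older name p8, which in mammals belongs to a small nuclear protein made under cell stress. Its values were already high at 52 h, the third highest of the set, and every step added at least 0.56. In adults it lay between -0.32 and 0.19.

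CG15404 and CG34227 were below the control in young larvae and then high. CG15404 was at -0.25, -0.19, 0.49, 2.12 and 4.74, and its last step of 2.62 was the largest of the set between 88 and 100 h. CG34227 was at -0.21, -0.16, -0.06, 3.06 and 4.50, so that nearly all of its increase lay after 76 h. It was the only one of the 53 genes still below 0 at 76 h. In adults CG15404 was at 0.53 in females starved for 48 h and at -0.79 in those on sugar for 48 h, where the 95th percentile of the difference between clones of a gene was 0.74 and 0.78. CG34227 was lower than the control in males, at -0.47, -0.38 and -0.71, where this percentile was 0.36, 0.37 and 0.50.

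CG4306 and CG11912 had more even steps. CG4306 was at 0.74, 1.47, 2.70, 3.84 and 4.69, with steps between 0.73 and 1.22. It was also the gene nearest to the adult bound, at -0.51, 0.05, -0.74 and -0.996 (starved 24 and 48 h, sugar 24 and 48 h) in females and -0.22, -0.46 and -0.42 (starved 24 h, sugar 24 and 48 h) in males. Thus 6 of its 7 adult ratios were below 0. CG11912, a gene with the serine protease number SP140 among its older names, was at 0.51, 0.81, 1.90, 3.13 and 4.10. In females on sugar at 48 h it was at 0.76, against -0.40 at 24 h.

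The time of the largest step differed among the genes. For 24 of the 53 it was the step from 88 to 100 h, for 17 the step from 76 to 88 h, for 7 that from 64 to 76 h and for 5 that from 52 to 64 h. In 21 genes a single step made up over 50% of the difference between 52 and 100 h. For these counts no share over all genes was computed. The largest step exceeded the 95th percentile of clone differences for that step in 25 of the 53. In the other genes the time of the largest step is uncertain. The first age at which a gene was at least 2-fold higher was 100 h in 29 genes, 88 h in 12, 76 h in 5, 64 h in 6 and 52 h in 1. The median step grew with age, from 0.16 to 0.32, 0.41 and 0.53, while that of all genes stayed between -0.03 and 0.02.

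Among the early genes, CG7916 was at 0.63, 1.98, 2.44, 2.85 and 2.90. Its first step, 1.35, was the largest of the set between 52 and 64 h, and its last was only 0.06. Its neighbour CG7953 had the same form at a lower level, with 0.44, 1.34, 1.71, 2.12 and 2.20. CG12115 had its largest step there too, but went on in even steps to 0.54, 1.38, 2.14, 2.88 and 3.41. CG6527 was the highest at 52 h, at 1.13, 1.20, 2.36, 2.70 and 2.80, with 69.5% of its increase between 64 and 76 h. CG12699 had a plateau at the end, at 0.15, 0.39, 1.53, 2.78 and 2.86.

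Of the 24 genes with the largest step between 88 and 100 h, 12 were below 0 at 52 h. Others were above the median of the 53, such as CG15155 at 0.46 and CG5391 at 0.27. The median of all genes at 52 h was -0.02, so values below 0 were common and the count of 12 is no trait of these genes. The 3 genes lowest at 52 h are among the 24. CG14332 was at -0.28, 0.06, 0.38, 0.75 and 2.96, and 68.0% of its increase lay in the last step. CG17738, the lowest of the set at 52 h, was at -0.47, 0.18, 0.42, 1.25 and 2.40. CG1146 was at -0.33, -0.17, 0.06, 0.69 and 1.44. All 3 passed 0 by 76 h.

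**Figure D2:**
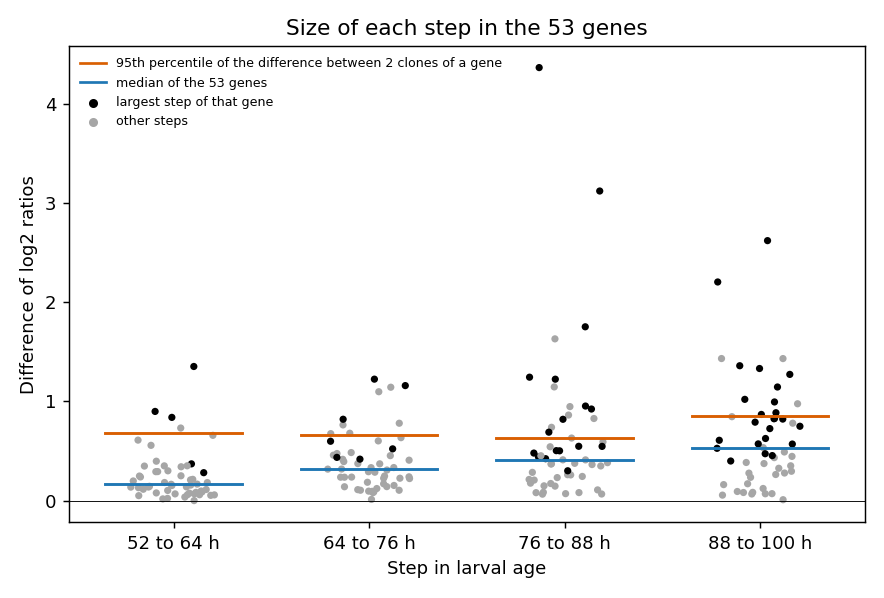
Difference of log2 ratios (vertical axis) at each of the 4 larval steps (horizontal axis), 1 point a gene, black where the step is that gene's largest. Blue bars are medians of the 53 genes, from 0.16 to 0.53, and orange bars the 95th percentile of the difference between the 2 clones of a gene, from 0.63 to 0.85, which most points lie under.

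The only measure of error in the values is how far clones of the same gene disagree. Over 645 genes with exactly 2 clones, the 95th percentile of the difference between the clones was 1.00 for the change from 52 to 100 h. For the ratio at 100 h it was 1.09, about the size that the rule itself demanded there. Of the 53 genes, 46 exceeded the percentile for the change and 46 at 100 h, which the rule favours. The share of all genes that did was not computed. For single steps the percentile was 0.68, 0.66, 0.63 and 0.85, and 4, 9, 15 and 13 genes of the set exceeded it, where 3.55%, 1.77%, 2.53% and 1.96% of all genes did. No gene exceeded it at all 4 steps, and 28 had at least 1 step under 0.1. The rule fixed the sign of each step, so these counts describe only the sizes. The clone difference holds nothing of the variation between animals.

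For 50 of the 53 genes the ratio rests on 1 clone. The 3 clones of CG15109 were at 0.88, 1.20 and 2.57 at 100 h, and only the middle one met the rule by itself. The 2 clones of CG9389 were at 1.00 (just below the threshold) and 1.31, and those of CG8661 at 1.14 and 0.88. In each of these 3 genes 1 clone met the whole rule alone. All 7 clones were higher at 100 h than at 52 h.

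Members just inside and just outside the limits differed little. At 100 h CG8560 was at 1.00, CG8661 and CG2267 at 1.01, and CG7320 and CG12963 at 1.04. Just outside, CG11600 and CG5089 were at 0.996, CG9664 at 0.958, CG16888 at 0.955 and CG1943 at 0.939, and all 5 met every other part of the rule. Of the CG-numbered genes that missed only 1 step, CG6891 was lower by 0.001 at 100 h than at 88 h, at 1.33 at both ages. Inside, CG5391 passed its first step with 0.27 at both 52 and 64 h and then reached 2.46. The adult bound left out 10 genes that met all else, of which CG16926 was nearest, at 2.83 at 100 h with an adult value of 1.05 in size. A single age decided many cases: without 52 h the rule would take 94 genes and without 64 h 98.

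A CG number says nothing of function, but a few of the genes carry older names that do. CG11912 (SP140) and CG11313 (SP11) have numbers of serine proteases, enzymes that cut other proteins, and CG18563 (SPH156) and CG4793 (SPH208) have numbers of serine protease homologues, related proteins that lack the cutting activity. These 4 of the 50 genes found in RefSeq (8%) compare with 108 of 3640 measured CG-numbered genes (2.97%). CG18563 was at 0.05, 0.40, 0.69, 1.55 and 2.82, CG4793 reached 1.45 and CG11313 reached 1.14 at 100 h. The last had its largest step early, 0.82 between 64 and 76 h, whereas CG18563 and CG4793 had theirs between 88 and 100 h. CG4836, with the older name SODH-1 for a sorbitol dehydrogenase, was at -0.10, -0.01, 0.08, 0.53 and 1.14.

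Older names also record where a transcript had been cloned from. CG12115, CG5770, CG7916 and CG8661 carry the name of a clone of the LP series, cDNA libraries made from larvae and early pupae. This holds for 4 of 50 genes (8%) against 20 of 3640 measured CG-numbered genes (0.549%). CG12963 and CG6527 carry a name of the AT series, from adult testis, 2 of 50 (4%) against 93 of 3640 (2.55%). These names were not used by the rule, and both counts are small.

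**Figure D3:**
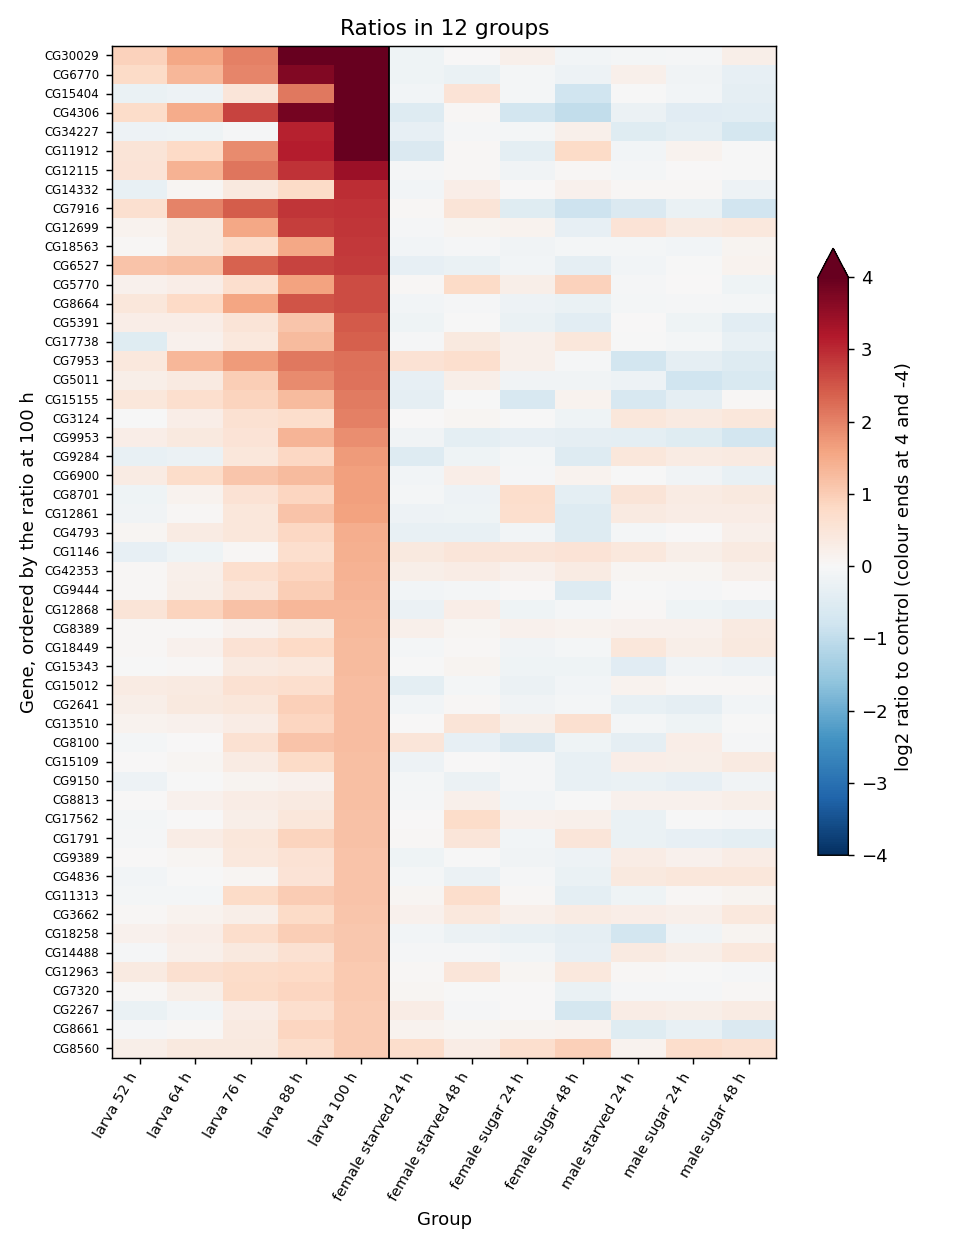
Log2 ratio to control (colour, ending at 4 and -4) of the 53 genes (rows, ordered by the ratio at 100 h) in the 5 larval and 7 adult groups (columns). The red field widens from 1 gene at least 2-fold higher at 52 h to all 53 at 100 h, and the adult columns stay pale, as the rule required.

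In adults the ratios were small by choice, between -0.996 and 0.95. Of the 53 genes, 28 stayed within 0.5 of the control in all 7 groups, and the share of all genes that did was not computed. The medians of the 53 genes were -0.08 and 0.05 in starved females at 24 and 48 h, and -0.07 and -0.14 in females on sugar. In males they were -0.02 after starvation and -0.03 and 0.03 on sugar. The quartiles of the 53 genes lay wider apart than those of all genes in every male group. In starved males they were -0.22 and 0.19, against -0.08 and 0.09 for all genes. In females starved for 24 h they were not wider, at -0.17 and 0.05 against -0.12 and 0.12, nor were they after 48 h. In females on sugar at 48 h they were wider, at -0.36 and 0.15 against -0.21 and 0.20. At 24 h of sugar they were slightly wider, at -0.14 and 0.13 against -0.13 and 0.13. CG5770 was at 0.06 and 0.75 in females after 24 and 48 h of starvation, at 0.24 and 0.92 after 24 and 48 h of sugar, and between -0.18 and 0.02 in males. CG8560 was above 0 in all 7 groups, from 0.13 in starved males to 0.95 in females on sugar at 48 h, the highest adult value of the set. CG5011 had its lowest values in males on sugar, at -0.81 and -0.61.

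Some of the genes were above the control in all male groups. In 11 of the 53 (20.8%) the ratio was at least 0.2 in all 3 male groups, where 4.38% of CG-numbered genes and 3.13% of all genes were. The limit of 0.2 was chosen after the values were seen. These 11 genes had medians of 0.44 in starved males and 0.29 and 0.38 in males on sugar, and the split itself sets them above the other 42. In females on sugar at 48 h their median was -0.32, with 10 of the 11 below 0 against 25 of the other 42, and in the other female groups it lay between -0.06 and -0.01. The 95th percentile of clone differences was 0.36 in starved males and 0.37 and 0.50 in males on sugar, where 7, 1 and 0 genes among the 11 exceeded it. Among the other 42 genes 0, 1 and 1 did. The split by male ratios favours high counts among the 11, and the share of all genes beyond this percentile is not given here. The count of 7 therefore has no base rate to be judged by.

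CG12699 was the highest of these at 100 h, and its male ratios were 0.56, 0.36 and 0.42. CG3124 was at 0.45, 0.35 and 0.44 in males and at -0.02, 0.28, 0.61, 0.69 and 2.02 in larvae. CG8701 was at 0.51, 0.34 and 0.38 in males and at 1.64 in larvae of 100 h. The others were CG9284, CG12861, CG1146, CG18449, CG15109, CG4836, CG14488 and CG2267, with 1.01 to 1.69 at 100 h. CG1146 differed from the rest in being above 0 in all female groups too, at 0.40 to 0.53. None of the 11 had its largest step between 52 and 64 h, and 7 had it between 88 and 100 h.

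**Figure D4:**
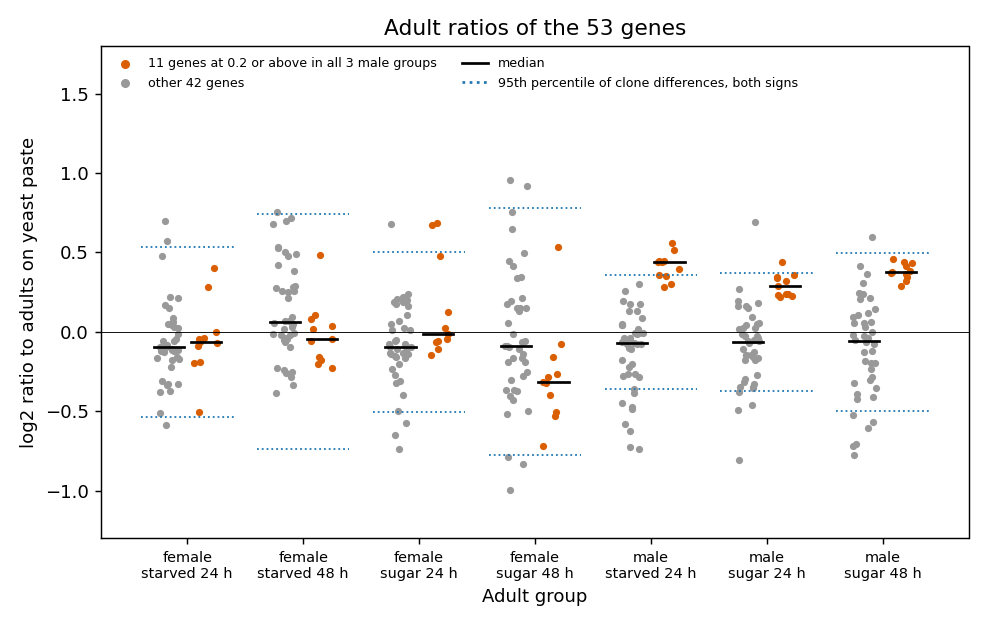
Log2 ratio to adults on yeast paste (vertical axis) in the 7 adult groups (horizontal axis), 1 point a gene. The 11 genes at 0.2 or above in all male groups (orange) have medians of 0.44, 0.29 and 0.38 there and of -0.32 in females on sugar at 48 h, black bars are medians, and dotted lines are the 95th percentile of clone differences.

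Of the genes with a name that met the same rule, 9 of 57 (15.8%) were likewise at 0.2 or above in all male groups. They were mixed in kind. Among them were dj, a sperm tail protein, at 2.24 at 100 h and 0.43, 0.42 and 0.44 in the male groups, and betaTub85D, the testis form of beta-tubulin, at 1.92 and 0.35, 0.21 and 0.43. Mst84Db, a male-specific transcript of sperm, was at 1.81 and 0.30, 0.36 and 0.42, and TrxT, a thioredoxin of the testis, at 1.36 and 0.55, 0.25 and 0.41. These 4 were picked for what they are known to do. The others were BNIP3, at 0.33, 0.54 and 0.41 in males but also at 0.67 to 0.99 in females, CatB, robl62A, salto and sip2. On a list of 30 testis and sperm genes, written after the values were seen and holding the 4 genes just named, 17 were measured. Their median was -0.02, 0.08, 0.29, 0.25 and 0.75 from 52 to 100 h, and 6 were at least 2-fold higher and none lower at 100 h. Mst77F, a protein of sperm chromatin, was highest at 2.98. Genes that act in earlier male germ cells lay on both sides, with sa at 0.97, nht at 0.35, aly at -0.03, can and bam at -0.12 and mia at -0.77. In the male groups the list had medians of 0.29, 0.22 and 0.29, and 8 of the 17 reached 0.2 in all 3. The 4 picked genes are 4 of these 8 and 4 of the 6 above, so the list gives no separate evidence. The part of testis tissue in the ratios of the 11 genes was not tested.

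Some of the genes lie beside each other in the genome. In the gene order of the RefSeq annotation, CG7916 and CG7953 are direct neighbours, and 1 gene lies between CG8664 and CG8661 (CG5445, at 0.30 at 100 h) and between CG18449 and CG8701 (CG2127, at -0.01). CG8664 went from 0.45 at 52 h to 2.53 and 2.59 at 88 and 100 h, and CG8661 at -0.06, 0.05, 0.37, 0.85 and 1.01. CG18449 was at 0.06, 0.19, 0.59, 0.81 and 1.28, and both it and CG8701 belong to the 11 genes above the control in all male groups. Of the 62 measured genes that lie directly beside one of the 50 placed genes and are not members themselves, 5 (8.06%) reached 2-fold at 100 h. Among 4160 genes beside any measured CG-numbered gene, 4.83% did. The first count leaves out members such as CG7916 and CG7953, and no such limit is named for the second. The shares are therefore not counted alike.

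These 5 neighbours missed the rule by a larval step, by the adult bound or by both, and 1 of them has a name. CG8997, on the other side of CG7916, was at 0.37, 1.21, 1.68, 2.20 and 2.18, so that the 3 genes in a row had the same early form. In all 3 the ratios in starved males were low, at -0.66 for CG8997, -0.58 for CG7916 and -0.73 for CG7953. CG12057, beside CG12115, was at 0.35, 1.04, 1.36, 1.92 and 2.59 but at 1.26 in females on sugar at 48 h and -1.21 in starved males. The next gene, CG12056, was at 1.09 at 100 h. CG5773, beside CG5770, was at 1.93 at 100 h. It was at 2.02, 2.90, 2.02 and 1.79 in females and males on sugar at 24 and 48 h. In females starved for 24 and 48 h it was at 0.97 and 1.79. CG5770 was lower than CG5773 in each of these groups. SPH93, a serine protease homologue beside CG18563 (SPH156), was at 0.75, 1.38, 1.79, 1.94 and 1.81. CG5162, beside CG18258, was at 0.97, 0.21, 2.27, 2.88 and 2.06, lower at the first and the last step. Whether related neighbours share signal on the array was not tested.

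**Figure D5:**
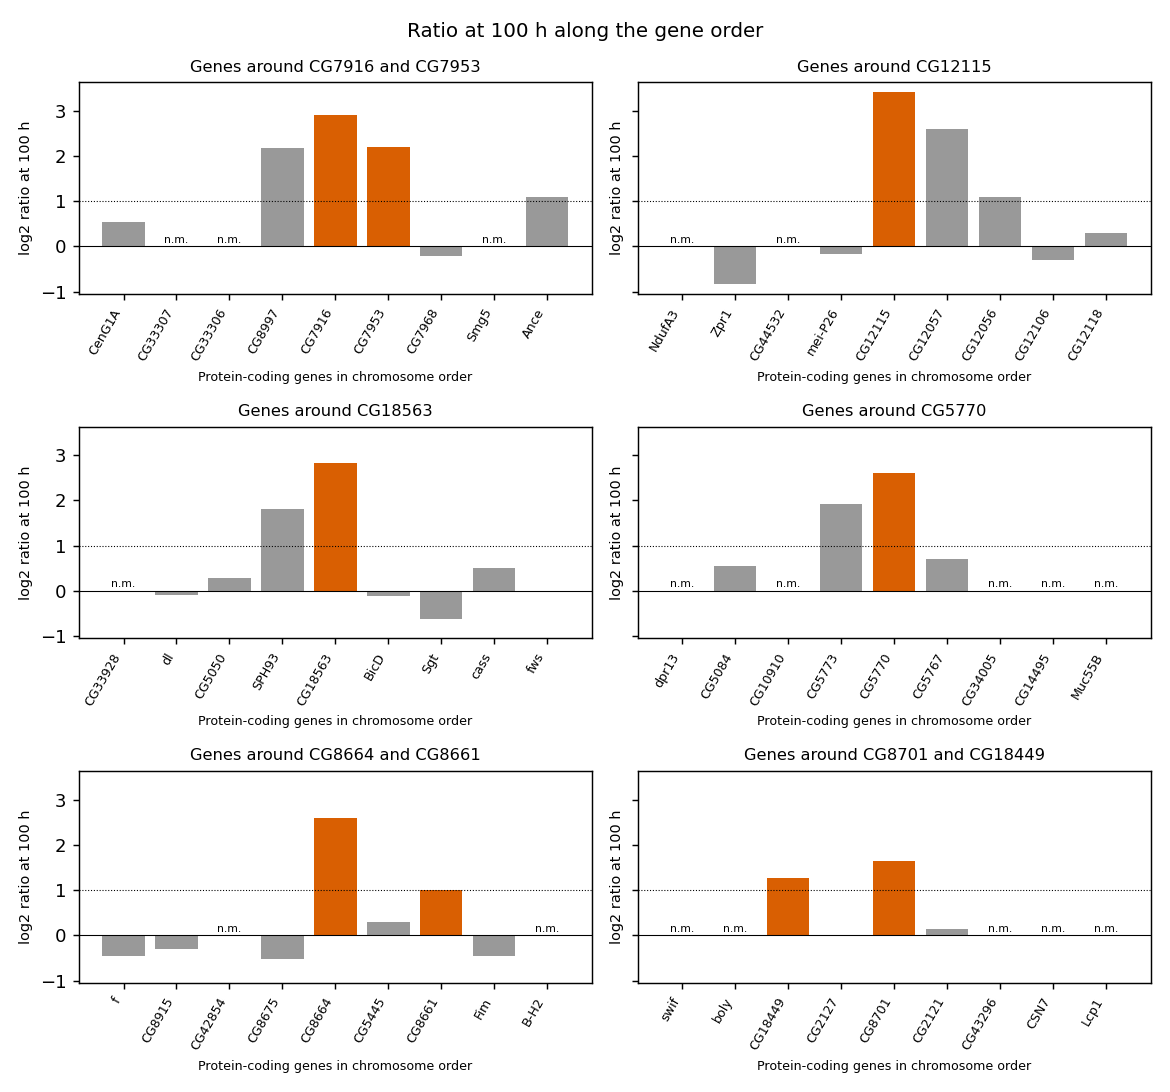
Log2 ratio at 100 h (vertical axis) of protein-coding genes in chromosome order (horizontal axis) around 9 of the 53 genes that have another of them or a gene above 2-fold nearby (CG18258 is not drawn), members in orange, others in grey, n.m. not measured, dotted line at 2-fold. CG8997, CG7916 and CG7953 stand at 2.18, 2.90 and 2.20 in a row, while CG2127 between CG18449 and CG8701 is at -0.01.

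In 23 of the 50 placed genes (46%) the annotated gene overlaps another, as in 46.8% of measured CG-numbered genes. CG7916 and CG7953 overlap CenG1A (0.53 at 100 h), and CG11912 overlaps Plc21C (0.19). The strand that the spots report is not given in the sources used here, so the signal of overlapping pairs is uncertain as to its gene.

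Having no name did not set the genes far apart in how often they met the rule. Of CG-numbered genes with a value in all groups, 53 of 3846 (1.38%) met it, and of genes with another name 57 of 5312 (1.07%). The named genes had medians of 1.62 at 100 h, 1.12 at 88 h and 0.13 at 52 h, against 1.44, 0.96 and 0.05. Their largest step was that from 88 to 100 h in 36 of 57 (63.2%), against 24 of 53 (45.3%), and that from 52 to 64 h in 1 (1.75%), against 5 (9.43%). The highest of them were mag, a lipase of the gut (5.57), CREG, a secreted glycoprotein (4.37), cer, an inhibitor of cathepsins (4.12), BNIP3, a mitophagy receptor (3.88), yellow-d2, of the yellow family (3.87), and PPO2 (3.55). The mirror rule, lower at each step and at least 2-fold lower at 100 h, took 82 of 3846 CG-numbered genes (2.13%), and 130 of 5312 genes with another name (2.45%). The difference between these shares was not tested.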

How the data were processed

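Each array was scanned 3 times, and both copies of a spot and all repeat hybridisations of a group were merged into 1 value, per the labels. The authors' deposited values are log2 ratios of the 2 channels, 63 columns in 12 groups, identical within each group. Base 2 was settled from the values, since taking 2 to the power of the absolute value gave 6 decimals, to a tolerance of 0.05 in the last one, for 99.996%. The sources used here do not state centring, background correction or direction. Column medians over clones lay between -0.03 and 0.02. Array numbers limit the precision, and the brightness of spots was not used here.

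Gene identifiers named 9814 of 12094 clones, accessions 87 and the symbols of the platform annotation 247, through the RefSeq table of Release 6 plus ISO1 MT. Clones of 1 gene were joined by their median. The rule, counts and medians were computed in Python 3.11.15 with pandas 2.3.3, without a filter on low values, and checked on simulated data. A limma fit planned for arrays with own values could not be made. No protein or promoter sequence was used here, and positions on chromosomes are not given because the array's build is not named.

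The members and lists were chosen with earlier results of these data known. Genes named in the text are the 10 highest at 100 h, those nearest the limits, the 2 largest at each step, the extremes at 52 h and in adults, neighbours in the gene order, genes with clones that disagree, the 6 highest other names and the 2 highest and lowest of each list, with some left out. The other genes given with values were chosen after their values were seen.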

Additional observations from a re-analysis of the deposited data

Results flagged for a closer look

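CG7953 differed in sign between the sexes after 24 h of starvation. It was at 0.57 in starved females and at -0.73 in starved males, and both values were beyond the 95th percentile of clone differences in their group, 0.54 and 0.36. The difference was not tested, since each group holds 1 merged value. Its neighbours CG7916 and CG8997 were at 0.04 and 0.42 in females and at -0.58 and -0.66 in males at that time.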

How the results depend on the processing

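The number of genes that met the rule, 53, depended on its limits. It was 25 where each step had to be at least 0.1, 91 at 1.5-fold and 25 at 3-fold at 100 h, and 28 with adult values between -0.5 and 0.5. In alternatives chosen after seeing the data, leaving out an age gave 94 (without 52 h) and 98 (without 64 h), and 73 without 76 h or 88 h, and symbols also updated through older names gave 50. Genes with more than 1 clone alone gave 3, with medians of 0.28 in starved males and 0.18 and 0.31 in males on sugar, and with the largest step at 76 to 88 h in 2, at 88 to 100 h in 1, and in 0 at both earlier steps. Centring on the median of all genes again gave 53 genes, 48 of them shared with the main set, and moved no median or named ratio by more than 0.03. The mean over clones and symbols that were not updated gave the same 53 genes. Requiring every clone to meet the rule gave 50, which are the genes with 1 clone, where it asks for nothing more. All 3 genes with several clones failed it. Without a bound in adults the number was 63. No paired analysis was possible because the arrays of a group carry 1 merged value, and leaving out single arrays could not be run for the same reason. The medians at the larval ages were computed for the mean over clones, centring, genes with more than 1 clone alone, older names, and ages left out. Without 52 h in the rule the median at 52 h was 0.21, against 0.05. Genes with more than 1 clone alone had medians of 0.08 at 64 h, against 0.24, and 1.16 at 100 h, against 1.44. Clone differences are those of single genes, so they cannot judge shifts of a median over many genes. For the other limits on steps, on the fold at 100 h and on adults the medians were not computed, and a higher fold limit raises the median at 100 h by choice. How depth or spot signal limits single ratios cannot be read from merged ratios.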
